A study of Mus musculus with 21 samples.

Results

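Caspases are proteases that are made as inactive precursors and that dismantle the cell once they are switched on. Casp8 encodes the initiator caspase that death receptors recruit at the membrane, and Cflar encodes c-FLIP, a caspase-8 relative that lacks protease activity and restrains it. Casp9 encodes the initiator of the mitochondrial route, which Apaf1 assembles with cytochrome c into the apoptosome, and Casp6 encodes an executioner caspase. The inhibitor of apoptosis (IAP) genes act against them: Xiap encodes a direct inhibitor of caspases, whereas Birc2 and Birc3 encode cIAP1 and cIAP2, ubiquitin ligases of tumor necrosis factor (TNF) receptor complexes that steer NF-kB signaling, and Birc3 is itself a known NF-kB target. Neutrophils are short-lived myeloid cells that are known to die by these routes. The 8 genes were taken by symbol from the 45706 gene identifiers of each count table, and all 8 were among the 19555 genes tested.

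RNA of sorted cells was sequenced in a mouse model of juvenile myelomonocytic leukemia (JMML), in which a Ptpn11 allele encodes the SHP2 variant D61Y. There were 21 libraries in 9 groups, made of 3 fractions and 3 genotypes. The fractions were LSK cells (lineage-depleted bone marrow (BM) cells positive for Sca1 and c-Kit, a stem and progenitor fraction), and myeloid CD11b+ cells isolated on magnetic columns from BM and from spleen. Each fraction had 2 MxCre libraries (the Cre transgene with a normal Ptpn11 locus), 2 libraries labelled Ptpn11D61Y/+ (the mutant allele behind a Neo-Stop cassette and no Cre, so that the allele is silent) and 3 libraries of terminally ill S3 mice with MxCre;Ptpn11D61Y/+. All mice received poly I:C, an interferon inducer that turns on the Mx promoter driving Cre, and this promoter is active beyond hematopoietic cells. The ages of the mice were not given in the labels. S3 animals 540 and 815 gave all 3 fractions by their labels, animal 640 both CD11b+ fractions and animal 768 LSK cells. The labels number the control libraries but do not name their animals, so p-values measure the spread between these libraries.

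The libraries held 34992610 to 104509425 counts each (median 69421661). Levels are log2 CPM (counts scaled to the library's size after TMM normalization, on the log2 scale), and 1 unit is a change of 2-fold. Differences are log2 fold changes from edgeR's quasi-likelihood test with their standard error (SE), and "called" means that the p adjusted over all genes tested by the Benjamini-Hochberg method was below 0.05. In bulk samples, fewer cells of a type and less RNA per cell cannot be told apart.

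Some libraries stood apart from the rest. The number of genes detected was 14641 in spleen MxCre 1, 14761 in BM S3 815 and 14885 in BM MxCre 1, against 17493 to 22865 in the other 11 CD11b+ libraries and at least 22718 in LSK cells. The female transcript Xist had 1 count in the LSK library of S3 animal 540 but 2780 and 712 counts in its BM and spleen CD11b+ libraries, so these libraries do not match 1 animal. Among the controls it had 2834 counts in BM MxCre 2 against 9 and 4 in the LSK and spleen libraries of that number, and 4753 in spleen Ptpn11D61Y/+ 1 against 17 and 1 in LSK and BM cells of that number. These control numbers therefore did not mark 1 animal across fractions. Xist was also uneven between genotypes. In LSK cells it had 9 to 17 counts in the controls but 39460 and 88850 in S3 animals 815 and 768. In spleen CD11b+ cells it had 0 and 4 counts in MxCre and 712, 3941 and 1 in S3 animals 540, 815 and 640. Sex was thus not balanced between genotypes, and its part in their differences, also for the X-linked Xiap, was not tested.

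The 2 CD11b+ libraries of S3 animal 640 went against the order of the other libraries. Under 6 of 7 numbers, Relb and Traf1, NF-kB pathway genes described further on, were higher in the spleen than in the BM library, and the erythroid marker sum was higher in BM. In animal 640, Relb was at 5.93 log2 CPM in BM and 5.6 in spleen, Traf1 at 6.44 and 5.07, and the erythroid sum at 13000 and 26800 CPM. The groups below follow the labels. Results that rest on these libraries are also given without both of them, an alternative chosen after the data were seen.

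The targeted gene was read as a check of the labels. In LSK cells, Ptpn11, which encodes the phosphatase SHP2, was at 6.79 and 6.86 log2 CPM in MxCre, at 6.0 and 5.92 under the label Ptpn11D61Y/+ and at 7.26, 7.13 and 7.25 in S3. In BM CD11b+ cells it was at 4.46 and 5.42 in MxCre, at 5.53 and 5.78 under the label Ptpn11D61Y/+ and at 5.97, 4.72 and 6.89 in S3 animals 540, 815 and 640. There both libraries with the silent allele lay above both MxCre libraries, the reverse of the order in LSK cells, and S3 animal 815 lay below 3 of the 4 controls. In spleen CD11b+ cells it was at 3.87 and 5.26 in MxCre, at 5.96 and 5.14 under the label Ptpn11D61Y/+ and at 6.52, 5.90 and 7.13 in S3, and the groups of controls overlapped there.

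The fractions carried the summed markers of their names, but not each single one. The summed level of 10 stem and progenitor markers was 1350 to 2100 CPM in LSK libraries and at most 553 CPM in CD11b+ libraries. Ly6a, the gene of Sca1, did not follow this order, at 42.5 to 76.1 CPM in LSK (median 60.4), 22.6 to 238 CPM in BM CD11b+ (median 39.1) and 3.18 to 313 CPM in spleen CD11b+ libraries (median 126), whereas Kit was at 288 to 533 CPM in LSK and 4.78 to 23.3 CPM in BM CD11b+ libraries. The sum of 6 myeloid markers was 3730 to 20800 CPM in CD11b+ libraries and at most 961 CPM in LSK libraries. Transcripts of other cells were also present. The 9 matched erythroid markers summed to between 13000 and 162000 CPM in BM CD11b+ libraries, led by hemoglobin genes, and 6 B cell markers to between 3290 and 22800 CPM in LSK libraries, where Ighm led. In the spleen CD11b+ fraction the makeup differed between genotypes. The 8 mature neutrophil markers summed to 43100 and 98400 CPM in MxCre, to 20500, 25000 and 56800 CPM in S3 and to 2370 and 5770 CPM under the label Ptpn11D61Y/+. The sum of B cell markers in these spleen libraries was 7240 and 20600 CPM under the label Ptpn11D61Y/+ and 503 to 3900 CPM in the others, and that of erythroid markers was 11700 to 26800 CPM in S3 against 936 to 4060 CPM in the controls.

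The genes lie on 6 chromosomes of the mouse genome (GRCm38, whole gene bodies). Birc2 (ENSMUSG00000057367, chr9:7818227-7837064, minus strand) and Birc3 (ENSMUSG00000032000, chr9:7848699-7873186, minus strand) are neighbors 11.6 kb apart with no gene between them. Cflar (ENSMUSG00000026031, chr1:58711508-58758884, plus strand) and Casp8 (ENSMUSG00000026029, chr1:58795374-58847503, plus strand) are 36.5 kb apart, with Gm3841 between them. The others are Casp9 (ENSMUSG00000028914, chr4:141793612-141815976, plus strand), Apaf1 (ENSMUSG00000019979, chr10:90989311-91082770, minus strand), Casp6 (ENSMUSG00000027997, chr3:129901425-129914103, plus strand) and Xiap (ENSMUSG00000025860, chrX:42059679-42109656, plus strand). Casp9 shares 94 exonic bases with Cela2a and 94 with Ctrc on the other strand, and since the use of strand in counting is not given in the sources used here, reads there could belong to either gene.

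The 250 bases before the starts of Birc2 and Birc3 are shown because these neighbors, which encode related ligases, differed in level and in range. They are RefSeq windows on GRCm38.p6, read 5′ to 3′ on the minus strand at chr9:7837058-7837307 and chr9:7873171-7873420, and capitals mark every CG dinucleotide:
Birc2: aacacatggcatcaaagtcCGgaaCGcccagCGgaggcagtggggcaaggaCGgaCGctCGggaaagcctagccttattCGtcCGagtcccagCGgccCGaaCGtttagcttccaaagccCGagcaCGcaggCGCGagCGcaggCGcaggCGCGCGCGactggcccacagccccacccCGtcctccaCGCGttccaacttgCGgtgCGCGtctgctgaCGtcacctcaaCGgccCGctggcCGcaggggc
Birc3: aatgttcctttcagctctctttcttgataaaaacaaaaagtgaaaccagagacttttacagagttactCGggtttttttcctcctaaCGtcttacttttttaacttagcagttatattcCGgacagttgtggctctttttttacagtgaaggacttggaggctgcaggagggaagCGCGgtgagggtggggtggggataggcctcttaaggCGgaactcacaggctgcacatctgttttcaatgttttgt
The Birc2 window holds 31 CG dinucleotides at a GC content of 68.4%, and 95.4% of all 32851 RefSeq promoter windows hold as few or fewer. The Birc3 window holds 6 at a GC content of 43.6%, where the median of all windows is 6 CG dinucleotides and 52.4% GC. Over the 250 bases before the start, Apaf1 holds 42, Casp9 25, Casp6 11, Cflar 7, Casp8 5 and Xiap 1. Where RefSeq gave several starts, the window nearest to the annotated 5′ end of the gene was taken, and the other windows held 19 for Birc2 and 13 and 1 for Xiap. This count was chosen after the sequences were seen. The short kappaB motif GGGANTTCC, searched on both strands from 250 bases before to 50 bases after the start, was in 0 of the 11 windows of the 8 genes and in 1.68% of all windows. The longer general kappaB consensus was in 1 of them, a Xiap window, and in 8.46% of all windows.

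Levels between genes were compared per length, as mean CPM per kb of exon. In LSK cells Casp8 stood highest of the 8, at 28.2 ± 2.17 CPM per kb in MxCre (SD, n = 2), 24.5 ± 0.478 under the label Ptpn11D61Y/+ (n = 2) and 30.6 ± 2.22 in S3 (n = 3). The next gene in each of these groups, Birc2, was at 9.99 ± 0.526, 10.7 ± 0.988 and 7.95 ± 0.156 CPM per kb. In spleen CD11b+ cells Birc3 had the highest group means, at 78.9 ± 30.5 CPM per kb in MxCre, 28.8 ± 1.07 under the label Ptpn11D61Y/+ and 21 ± 2.92 in S3. The S3 mean was within its spread of Birc2 (17.4 ± 11.6) and Casp8 (17.1 ± 7.67), and in each S3 library 1 of these genes stood above Birc3. In BM CD11b+ cells Birc2 and Birc3 overlapped in MxCre (22.3 ± 3.8 and 17.9 ± 11.2 CPM per kb) and in S3 (15.3 ± 5.39 and 14.8 ± 7.48). Under the label Ptpn11D61Y/+ Birc3 was at 17.9 ± 3.22, Casp8 at 16.3 ± 2.97 and Birc2 at 13.8 ± 1.05 CPM per kb, and the Birc2 libraries were below those of Birc3. Casp6 was lowest per length in all 9 groups, at 1.34 to 3.60 CPM per kb. The plot of levels shows the 8 genes in each library.

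**Figure D1:**
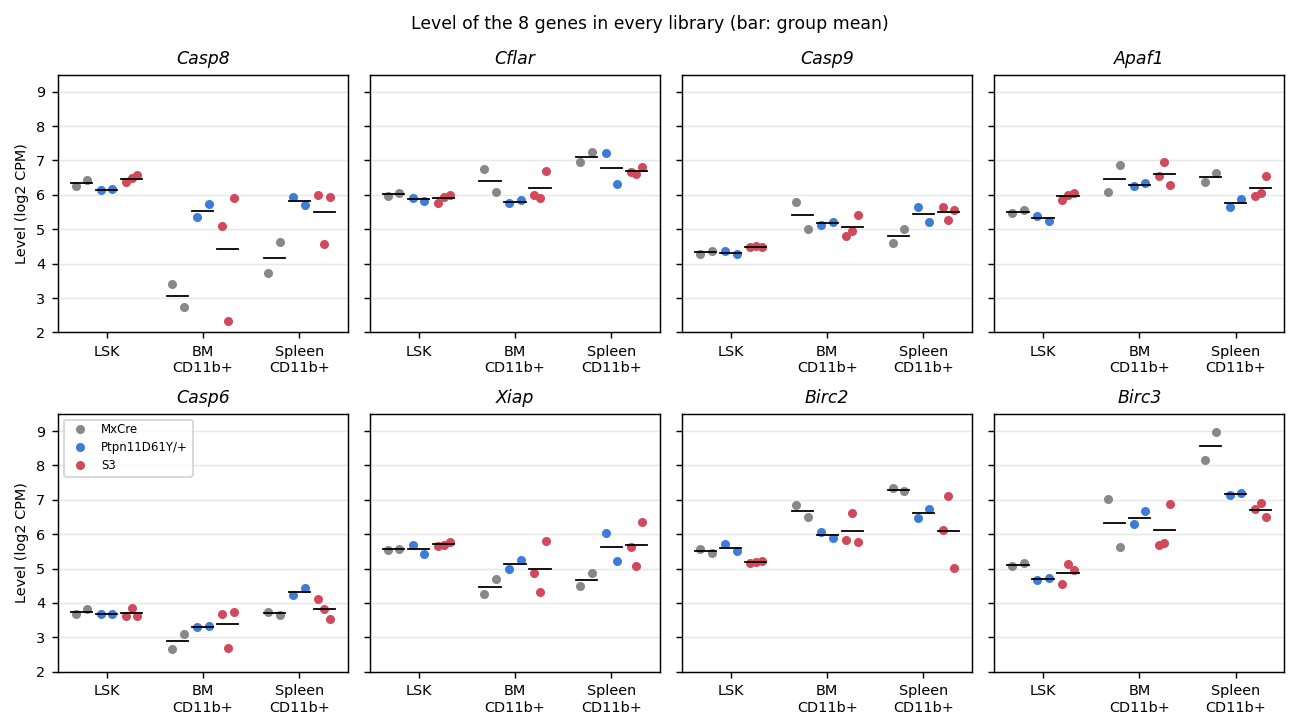
Level (log2 CPM, y axis) of the 8 genes in each of the 21 libraries, by fraction (x axis) and genotype (color), with a bar at the group mean. LSK libraries span at most 0.60 for every gene but Apaf1 (0.81), Casp8 spreads from 2.32 to 5.99 in CD11b+ cells, and Birc3 is highest in the 2 spleen MxCre libraries.

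Birc3, which encodes cIAP2, had the largest difference of the 8 genes between spleen CD11b+ and LSK cells. In LSK cells it was at 5.06 and 5.15 log2 CPM in MxCre, 4.68 and 4.72 under the label Ptpn11D61Y/+ and 4.55, 5.12 and 4.97 in S3 animals 540, 815 and 768. In BM CD11b+ cells it was at 7.01 and 5.64 in MxCre, 6.29 and 6.66 under the label Ptpn11D61Y/+ and 5.69, 5.75 and 6.88 in S3 animals 540, 815 and 640. In spleen CD11b+ cells it was at 8.17 and 8.98 in MxCre, 7.13 and 7.21 under the label Ptpn11D61Y/+ and 6.73, 6.90 and 6.49 in S3 animals 540, 815 and 640. All LSK libraries thus lay below all CD11b+ libraries. By group means, the order ran from spleen MxCre (8.57 ± 0.572, SD, n = 2) through spleen Ptpn11D61Y/+ (7.17 ± 0.0535, n = 2) and spleen S3 (6.71 ± 0.204, n = 3) to the BM and then the LSK groups. The 3 spleen groups did not overlap with each other, whereas spleen S3 overlapped with BM Ptpn11D61Y/+, the 3 BM groups overlapped among themselves, and in LSK cells S3 overlapped with both controls.

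Between spleen CD11b+ and LSK cells, Birc3 was higher in spleen by 3.00 in the controls (SE 0.340, or 7.99-fold, adjusted p = 8.22e-06) and by 1.82 in S3 (SE 0.376, adjusted p = 0.0027). Between BM CD11b+ and LSK cells it was higher in BM by 1.58 in the controls (SE 0.323, adjusted p = 0.00114) and by 1.32 in S3 (SE 0.371, adjusted p = 0.0169). With the S3 animal as a replicate block this difference was 1.14 and was not called (adjusted p = 0.0945). LSK and CD11b+ libraries share only animals 540 and 815, and the Xist counts go against the pairing of 540, so values with this block rest on a pairing that is in doubt for 1 of 2 animals. Spleen CD11b+ cells also exceeded BM CD11b+ cells in the controls, by 1.41 (SE 0.322, adjusted p = 0.0132), a call that was lost without BM Ptpn11D61Y/+ 1 (1.33, adjusted p = 0.0727) and with only the groups compared (1.34, adjusted p = 0.0716). In S3 the same comparison gave 0.50 (SE 0.365, adjusted p = 0.748), and the spleen and BM libraries overlapped. Of the genes tested, 48.8% were called between BM CD11b+ and LSK cells in the controls and 27.1% in S3, 52.5% between spleen CD11b+ and LSK cells in the controls and 27.4% in S3, and 9.97% between spleen and BM CD11b+ cells in the controls and 0.0563% in S3. Without the LSK library of S3 animal 540, the Birc3 difference between BM CD11b+ and LSK cells in S3 was 1.17 and was no longer called (adjusted p = 0.0703), and without the BM library of animal 640 it was 0.83 (adjusted p = 0.0665). Without both CD11b+ libraries of animal 640 it was 0.83 with an adjusted p of 0.05, just under the threshold, the spleen against LSK difference in S3 was 1.88 (adjusted p = 0.000579) and the spleen against BM difference in S3 was 1.04 (adjusted p = 0.119). Leaving out these libraries raised the number of genes called between spleen and BM CD11b+ cells of S3 from 11 to 733.

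Cflar and Birc2 were also higher in spleen CD11b+ than in LSK cells. Against LSK cells, Cflar was higher in spleen CD11b+ cells by 1.03 in the controls (SE 0.238, adjusted p = 0.00243) and by 0.79 in S3 (SE 0.274, adjusted p = 0.0429). It ranged from 5.77 to 6.06 log2 CPM in LSK cells, from 5.75 to 6.74 in BM CD11b+ cells and from 6.32 to 7.24 in spleen CD11b+ cells. The LSK and spleen libraries did not overlap. With the animal as a replicate block the S3 difference was 0.69 and was not called (adjusted p = 0.109). Between BM CD11b+ and LSK cells Cflar differed by 0.17 in the controls (adjusted p = 0.559) and 0.34 in S3 (adjusted p = 0.358). In the controls Cflar was also higher in spleen than in BM CD11b+ cells, by 0.85 (SE 0.237, adjusted p = 0.0332), although the libraries overlapped. This call held in 2 of 8 fits that left out a single library, which gave 0.55 (adjusted p = 0.195, without spleen Ptpn11D61Y/+ 1) to 1.04, and was lost with library size alone, with no filter on low counts and with only the groups compared (adjusted p = 0.0548, 0.0686 and 0.151). Birc2, the cIAP1 gene, was also higher in spleen CD11b+ cells, by 1.39 in the controls (SE 0.327, adjusted p = 0.00269) and by 1.13 in S3 (SE 0.375, adjusted p = 0.0356). Its LSK levels were 5.57 and 5.46 in MxCre, 5.70 and 5.51 under the label Ptpn11D61Y/+ and 5.16, 5.19 and 5.21 in S3. Its spleen levels were 7.33 and 7.26 in MxCre, 6.48 and 6.73 under the label Ptpn11D61Y/+ and 6.11, 7.10 and 5.03 in S3 animals 540, 815 and 640. The spleen library of animal 640 was below every LSK S3 library. Between BM CD11b+ and LSK cells Birc2 differed by 0.77 in the controls (adjusted p = 0.0597) and by 0.95 in S3 (adjusted p = 0.0689), and with the animal as a replicate block the S3 value was called, at 1.23 (adjusted p = 0.0179). Without the spleen library of animal 815, the difference in S3 was 0.48 (adjusted p = 0.308). Without both CD11b+ libraries of animal 640 the S3 differences of Birc2 and Cflar were 1.46 (adjusted p = 0.00113) and 0.69 (adjusted p = 0.0392). The S3 calls of Birc2 and Cflar were also lost with RLE size factors (adjusted p = 0.0562 and 0.0759) and with no filter on low counts (0.0508 for Birc2). That of Birc2 was lost as well with limma-voom (adjusted p = 0.082) and only the groups compared (0.106). Of 6 fits that left out a single library, 1 kept the Birc2 call and 0 kept that of Cflar (adjusted p = 0.0687 to 0.142).

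Both genes of the mitochondrial initiator pair were higher in CD11b+ cells than in LSK cells of the controls, and Casp9 also in spleen CD11b+ cells of S3. These calls hold with TMM and were lost with library size alone, as given with the counts further on. Casp9 ranged from 4.28 to 4.50 log2 CPM over the 7 LSK libraries, from 4.79 to 5.78 in BM CD11b+ cells and from 4.61 to 5.66 in spleen CD11b+ cells, with no overlap between LSK and CD11b+ libraries. In the controls it was higher than in LSK cells by 0.99 in BM (SE 0.219, adjusted p = 0.00203) and by 0.82 in spleen (SE 0.219, adjusted p = 0.00582), and in S3 by 1.01 in spleen (SE 0.253, adjusted p = 0.00868). The S3 difference in BM was 0.59 (adjusted p = 0.0881). Apaf1 was higher than in LSK cells in the controls by 0.99 in BM (SE 0.221, adjusted p = 0.00203) and by 0.73 in spleen (SE 0.220, adjusted p = 0.012), where 4 of 8 fits that left out a single library lost the call (adjusted p up to 0.0666). In LSK cells it was at 5.48 and 5.55 in MxCre, 5.39 and 5.25 under the label Ptpn11D61Y/+ and 5.85, 5.99 and 6.06 in S3, so the S3 libraries were all above the controls. In S3, Apaf1 differed from LSK cells by 0.66 in BM (adjusted p = 0.0615) and by 0.25 in spleen CD11b+ cells (adjusted p = 0.473). Without both CD11b+ libraries of animal 640, the BM difference of Apaf1 in S3 was called, at 0.82 (adjusted p = 0.0114).

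Casp8 was lower in CD11b+ cells than in LSK cells and had the widest range of the 8 among CD11b+ libraries. It was at 6.13 to 6.57 log2 CPM over the 7 LSK libraries, all above all CD11b+ libraries. In BM CD11b+ cells it was at 3.40 and 2.73 in MxCre, 5.36 and 5.73 under the label Ptpn11D61Y/+ and 5.08, 2.32 and 5.91 in S3 animals 540, 815 and 640. In spleen CD11b+ cells it was at 3.73 and 4.62 in MxCre, 5.95 and 5.70 under the label Ptpn11D61Y/+ and 5.99, 4.58 and 5.93 in S3 animals 540, 815 and 640. Both MxCre groups and both libraries of S3 animal 815 were low. The lowest value stands for 131 counts and the highest for 4208. In the controls, BM CD11b+ cells had less Casp8 than LSK cells, with a log2 fold change of -1.92 (SE 0.507, adjusted p = 0.0062). The corresponding values were -1.21 in spleen (SE 0.496, adjusted p = 0.0501), -1.43 for BM in S3 (SE 0.576, adjusted p = 0.0749) and -0.84 for spleen in S3 (SE 0.568, adjusted p = 0.282), none of them called by the main edgeR fit. Other edgeR settings called the spleen difference in the controls: RLE size factors (-1.37, adjusted p = 0.0282), library size alone (-2.05, 0.00714) and only the groups compared (-1.19, 0.00246). No filter on low counts did not (-1.28, adjusted p = 0.0506). The BM difference in S3 was called with library size alone (-1.86, adjusted p = 0.0456). DESeq2 and limma-voom called the spleen difference in the controls (adjusted p = 0.0147 and 0.0372) and the BM difference in S3 (adjusted p = 0.0367 and 0.0334). Without both CD11b+ libraries of animal 640, edgeR also called the BM difference in S3, at -2.19 (adjusted p = 0.0106), and with the animal as a replicate block at -2.44 (adjusted p = 0.0123).

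The Casp8 level moved with the number of genes detected in a CD11b+ library. The 6 libraries in which Casp8 was at 2.32 to 4.62 log2 CPM had 14641 to 19054 genes detected, and the 8 in which it was at 5.08 to 5.99 had 19772 to 22865. Xiap was at 4.25 to 5.08 in these 6 libraries and at 4.86 to 6.34 in the other 8. Birc2 went the other way, at 6.49 to 7.33 in the 6 and 5.03 to 6.73 in the 8. The part of the number of genes detected in the genotype differences of Xiap and Birc2 was not tested. Leaving out the 3 CD11b+ libraries with the fewest genes left 1 MxCre library in each CD11b+ fraction, so values with MxCre are given here as effect sizes only. The Casp8 difference of spleen CD11b+ against LSK cells in the controls was then -1.04. Between BM CD11b+ and LSK cells the log2 fold change was -2.12 in the controls and -0.93 in S3 (adjusted p = 0.0771). That of S3 against MxCre in BM was 2.83. For Ptpn11D61Y/+ against MxCre it was 2.85 in BM and 1.21 in spleen.

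**Figure D2:**
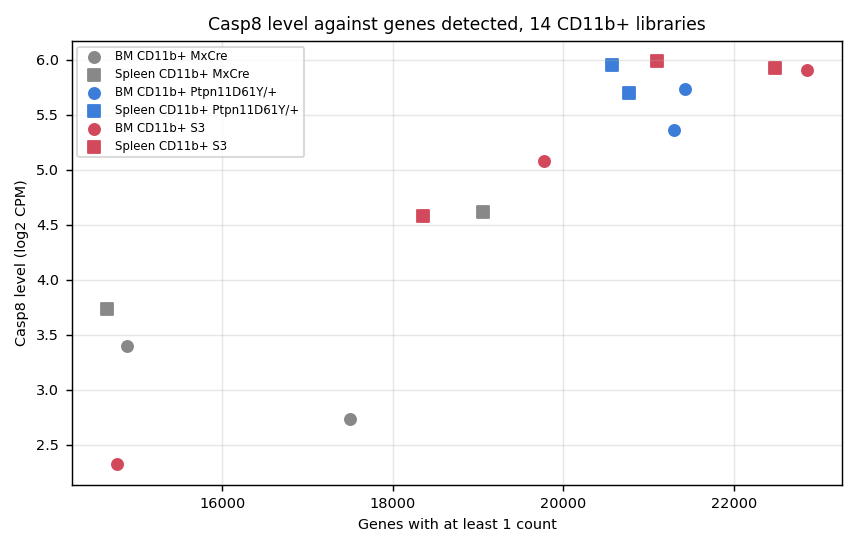
Casp8 level (log2 CPM, y axis) against the number of genes with at least 1 count (x axis) in the 14 CD11b+ libraries, with circles for BM and squares for spleen. The 6 libraries with Casp8 at 4.62 or below have at most 19054 genes detected, and the other 8 have at least 19772.

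Casp6 and Xiap were called in few comparisons. Casp6 was at 3.61 to 3.85 log2 CPM in LSK cells, 2.67 to 3.75 in BM CD11b+ cells and 3.52 to 4.42 in spleen CD11b+ cells, and in the controls it was higher in spleen than in BM CD11b+ cells by 0.91 (SE 0.264, adjusted p = 0.0387). This call was lost in all 8 fits that left out a single library (adjusted p = 0.0545 to 0.137), with limma-voom (0.0534), with no filter on low counts (0.126) and with only the groups compared (0.13). Casp6 was at lower levels in all BM CD11b+ than in all LSK libraries of the controls, a log2 fold change of -0.61 that edgeR did not call (adjusted p = 0.0644). That difference was called with RLE size factors (adjusted p = 0.0245), library size alone (0.000752), DESeq2 (0.00125) and only the groups compared (0.0292). Without the 3 CD11b+ libraries with the fewest genes, which leaves 1 BM MxCre library, it was -0.53. Xiap was at 5.42 to 5.78 in LSK cells, 4.25 to 5.79 in BM CD11b+ cells and 4.50 to 6.34 in spleen CD11b+ cells, and edgeR called it in 0 of the 18 comparisons, limma-voom in 0 and DESeq2 in 1, with 3 at an unadjusted p under 0.05. Its highest level in each CD11b+ fraction was that of S3 animal 640, at 5.79 in BM and 6.34 in spleen. Between BM CD11b+ and LSK cells of S3, Xiap gave -0.58 (adjusted p = 0.237) with overlapping libraries, -1.07 without both of these libraries (adjusted p = 0.00817) and -1.04 with the animal as a replicate block (adjusted p = 0.0166). In the controls it gave -0.75 (adjusted p = 0.0589), with all BM below all LSK libraries. There Xiap was called with RLE size factors (adjusted p = 0.0328), library size alone (0.00298), DESeq2 (0.0208), only the groups compared (0.0103) and a replicate block (0.0123).

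In all, edgeR called 4 of the 8 genes between BM CD11b+ and LSK cells in the controls, 3 higher and Casp8 lower (beside 48.8% of all genes), and 5 between spleen CD11b+ and LSK cells, all higher (beside 52.5%). The corresponding counts in S3 were 1 (beside 27.1%) and 4 (beside 27.4%), all higher, and 3 were called higher in spleen than in BM CD11b+ cells of the controls (beside 9.97%), where leaving out single libraries gave 0 to 2 (0 without BM Ptpn11D61Y/+ 1). For spleen against BM CD11b+ cells in S3 the count was 0, also at an unadjusted p under 0.05, with DESeq2 and with limma-voom. It was also 0 with the animal as a replicate block. Casp8, Casp9, Xiap and Cflar were higher in the spleen than in the BM library of each S3 animal, whereas Casp6, Apaf1, Birc2 and Birc3 went both ways. Without both CD11b+ libraries of animal 640, 5 of the 8 were called between BM CD11b+ and LSK cells of S3 (Casp8, Apaf1, Xiap, Birc2 and Birc3). The number of all genes called in this comparison rose as well, from 5301 to 8416. With the animal as a replicate block 3 of the 8 were called there (Casp8, Xiap and Birc2), and the number of all genes called with this block is not given here. The median of the 8 log2 fold changes of spleen CD11b+ against LSK cells was 0.77 in the controls and 0.52 in S3, beside -0.23 and 0.02 over all genes tested. The plot of differences between fractions gives each value.

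**Figure D3:**
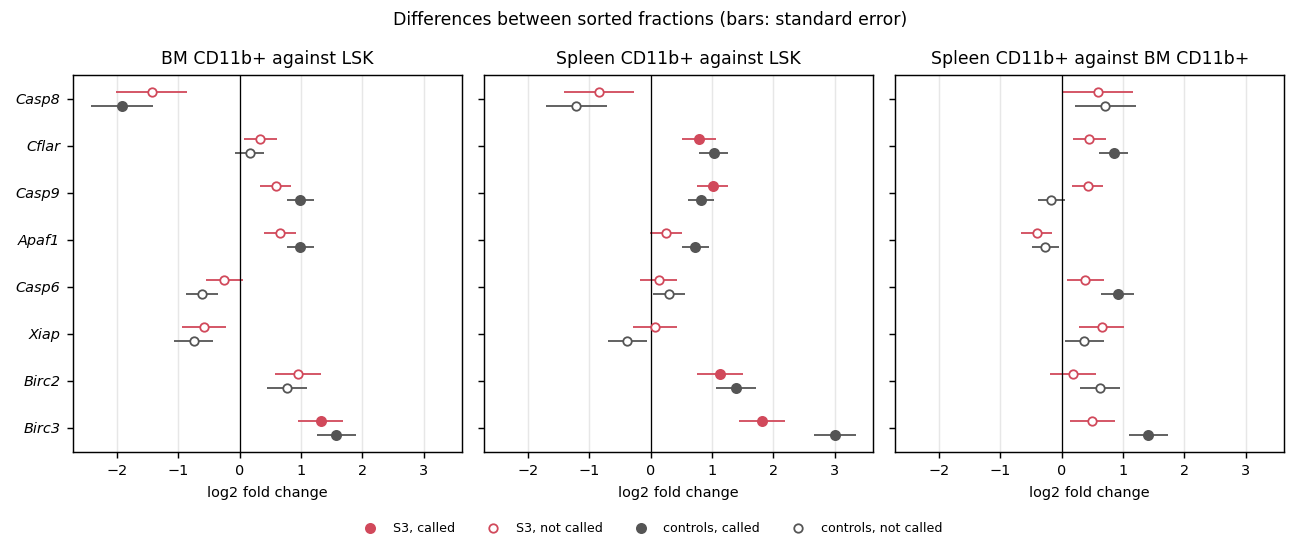
Log2 fold change (x axis) of the 8 genes (y axis) between the sorted fractions, in S3 and in the controls (mean of MxCre and Ptpn11D61Y/+), with bars for the standard error and filled points for called genes. Birc3 reaches 3.00 between spleen CD11b+ and LSK cells of the controls, and Casp8 lies at -1.92 between BM CD11b+ and LSK cells of the controls.

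The direction of several of these differences depended on the scaling. With library size alone in place of TMM, the median log2 fold change over all genes moved from -0.19 to -1.14 for BM CD11b+ against LSK cells of the controls and from -0.08 to -0.64 in S3, and for spleen CD11b+ against LSK cells from -0.23 to -1.05 in the controls and from 0.02 to -0.59 in S3. The share of called genes that were higher in CD11b+ cells went from 45.8% to 18.1% and from 53.3% to 26.2% in BM, and from 46.7% to 23.5% and from 57.8% to 29.3% in spleen. In BM of the controls the 3 higher calls were then lost, at 0.01 for Casp9 (adjusted p = 0.985), 0.02 for Apaf1 (adjusted p = 0.946) and 0.61 for Birc3 (adjusted p = 0.166). Instead Casp6 (-1.58), Xiap (-1.72), Cflar (-0.80) and Casp8 (-2.89) were called lower. In spleen CD11b+ against LSK cells, Birc3 stayed called higher, at 2.15 in the controls (adjusted p = 0.000329) and 1.18 in S3 (adjusted p = 0.0479), while the other higher calls were lost, with Birc2 at 0.57 and 0.43, Cflar at 0.21 and 0.18 and Casp9 at -0.01 and 0.40 in controls and S3, and Apaf1 at -0.11 in the controls. Casp8 was among the genes then called lower in spleen of the controls (-2.05, adjusted p = 0.00714). Birc3 in BM of S3 was at 0.83 (adjusted p = 0.146). Relative to the median of all genes, the values moved little, since this change shifts all genes of a comparison by about the same amount. In BM of the controls Casp9 lay above that median by 1.17 with TMM and 1.16 with library size alone, Apaf1 by 1.18 and 1.17 and Birc3 by 1.77 and 1.75, and Casp8 stood at -1.73 and -1.75. In spleen of the controls Birc3 lay above it by 3.22 and 3.20. These distances therefore do not test the calls, and the calls of higher members are to be read relative to the bulk of genes.

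Comparing S3 with MxCre asks which genes differ in terminal disease. In spleen CD11b+ cells 4.19% of all genes were called, and of the 8 genes 1 was. Of the called genes 36.1% were higher in S3 with TMM and 72.1% with library size alone, where the median over all genes moved from 0.32 to 0.77. Birc3 was lower in S3 by a log2 fold change of -1.91, a 3.76-fold difference (SE 0.404, adjusted p = 0.0179 by edgeR), and the 3 S3 libraries lay at 6.49 to 6.90 log2 CPM, all below the MxCre libraries at 8.17 and 8.98. The libraries labelled Ptpn11D61Y/+ lay between them, at 7.13 and 7.21. Set against these libraries, the S3 difference was -0.45 (SE 0.404, adjusted p = 0.884), and Ptpn11D61Y/+ against MxCre gave -1.46 (SE 0.455, adjusted p = 0.0712). The S3 call depended on the libraries compared. In a fit of the S3 and MxCre spleen libraries alone, edgeR called 0 genes, against 819 in the fit of all libraries. Without MxCre 2 the log2 fold change was -1.44 and without MxCre 1 it was -2.25, each time with 1 MxCre library left. With both kinds of control together it was -1.37 and not called (adjusted p = 0.224). The call was also lost without the spleen library of S3 animal 540 (-1.92, adjusted p = 0.0585) or 640 (-1.81, adjusted p = 0.051). Without both CD11b+ libraries of animal 640 the log2 fold change was -1.81 (adjusted p = 0.0143). Without the 3 CD11b+ libraries with the fewest genes detected it was -2.26, again with 1 spleen MxCre library left. The mature neutrophil sums given above were lower in 2 of the 3 spleen S3 libraries than in both MxCre libraries and lowest under the label Ptpn11D61Y/+, and their part in the Birc3 difference was not tested.

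**Figure D4:**
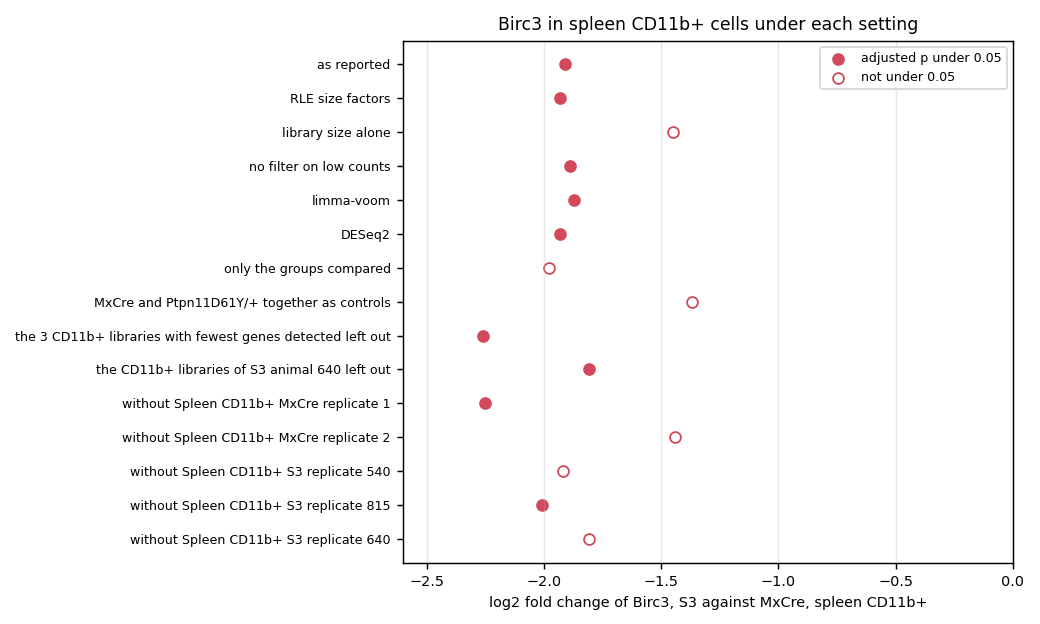
Log2 fold change of Birc3 between S3 and MxCre spleen CD11b+ cells (x axis) under each processing setting and without each library compared (y axis), with filled points where the adjusted p is under 0.05. All values are negative, from -2.26 to -1.37, and several settings do not pass the threshold.

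The other 7 genes were not called between S3 and MxCre in spleen CD11b+ cells. Casp9 was at 4.61 and 5.02 log2 CPM in MxCre and 5.65, 5.26 and 5.56 in S3, a log2 fold change of 0.67 (SE 0.286, adjusted p = 0.16), with no overlap. Xiap was at 4.50 and 4.86 in MxCre and 5.63, 5.08 and 6.34 in S3, a log2 fold change of 1.08 (SE 0.419, adjusted p = 0.13), again with no overlap. This Xiap value ran from 0.68 to 1.33 when single libraries were left out. Birc2 had a log2 fold change of -0.98 (SE 0.409, adjusted p = 0.154), with all S3 libraries below both MxCre libraries. Without the library of animal 815 Birc2 was called lower, by a log2 fold change of -1.63 (adjusted p = 0.0292), whereas it was -0.61 without the spleen library of animal 640 (adjusted p = 0.311), which held the lowest Birc2 level, and -0.61 without both CD11b+ libraries of that animal (adjusted p = 0.237). Casp8 gave 1.39 (SE 0.663), Cflar -0.41 (SE 0.302), Apaf1 -0.31 (SE 0.281) and Casp6 0.12 (SE 0.339). The median over the 8 genes was -0.09, beside 0.32 over all genes tested.

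In BM CD11b+ cells edgeR called 0% of all genes and 0 of the 8 between S3 and MxCre, as did DESeq2 and limma-voom for the 8, and 1 of the 8 had an unadjusted p under 0.05. This was Casp8, with a log2 fold change of 1.94 (SE 0.683, adjusted p = 0.236) and overlapping libraries, and without the BM library of S3 animal 815 it was called at 2.45 (adjusted p = 0.0443). Casp8 gave 1.18 without the BM library of animal 640 (adjusted p = 0.515), 1.19 without both CD11b+ libraries of that animal (adjusted p = 0.446) and 0.24 with both kinds of control together (adjusted p = 1). In LSK cells 0.0307% of all genes were called between S3 and MxCre and 0 of the 8, none of which had an unadjusted p under 0.05 or a call by DESeq2 or limma-voom. LSK libraries spread less than CD11b+ libraries, and the shared fit gives all fractions 1 spread per gene. In a fit of the S3 and MxCre LSK libraries alone, edgeR called 26.8% of genes, among them Apaf1, higher in S3 by 0.41 (adjusted p = 0.0209), and Birc2, lower by a log2 fold change of -0.36 (adjusted p = 0.017).

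Against the libraries labelled Ptpn11D61Y/+, S3 had 0.0972% of all genes called in LSK cells, 0% in BM and 0.00511% in spleen CD11b+ cells, and 0 of the 8 genes in each fraction by edgeR, DESeq2 and limma-voom. At an unadjusted p under 0.05 there was 1 in LSK cells, Apaf1, with a log2 fold change of 0.64 (SE 0.288, adjusted p = 0.826), and 0 in either CD11b+ fraction. In a fit of these LSK libraries alone, 29.2% of genes were called, again with Apaf1 higher (0.59, adjusted p = 0.0101) and Birc2 lower (-0.48, adjusted p = 0.0125) in S3. In the fit of all libraries the log2 fold changes of the 8 genes ran from -0.52 for Casp8 in BM to 0.64 for Apaf1 in LSK cells. This comparison and the one with MxCre share their S3 libraries.

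Between the 2 kinds of control, 0.0614% of all genes were called in LSK cells, 0% in BM and 5.11% in spleen CD11b+ cells (41% of them higher under the label Ptpn11D61Y/+, and 83.7% with library size alone), and edgeR and limma-voom called 0 of the 8 genes in each. DESeq2 called Casp8 in BM, higher under the label Ptpn11D61Y/+ by 2.32 (adjusted p = 0.0248), and Birc3 in spleen, lower by a log2 fold change of -1.43 (adjusted p = 0.0247). At an unadjusted p under 0.05 there were 0 of the 8 in LSK cells, 1 in BM and 4 in spleen. In BM this was Casp8, with a log2 fold change of 2.46 (SE 0.733, adjusted p = 0.164 by edgeR) and no overlap. In spleen, Casp8 gave 1.59 (SE 0.709, adjusted p = 0.181), Xiap 0.98 (SE 0.448, adjusted p = 0.191), Apaf1 -0.76 (SE 0.311, adjusted p = 0.149) and Birc3 the value given above. In a fit of the control LSK libraries alone, 14.2% of genes were called, and Birc3 was lower under the label Ptpn11D61Y/+ (-0.39, adjusted p = 0.0154). The plot of differences from MxCre sets both genotypes side by side, and both share the MxCre libraries.

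**Figure D5:**
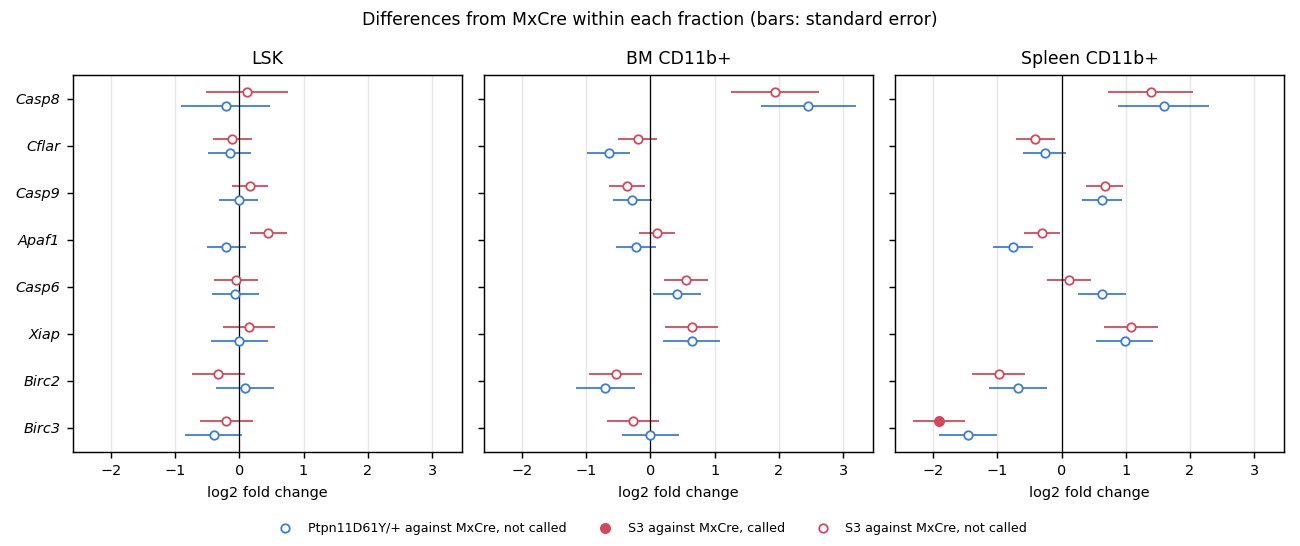
Log2 fold change (x axis) of the 8 genes (y axis) against MxCre within each fraction, for S3 and for the libraries labelled Ptpn11D61Y/+, with bars for the standard error and filled points for called genes. Only Birc3 in spleen CD11b+ cells of S3, at -1.91, is filled.

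The fractions were also tested for a difference in their S3 against MxCre values, and 0 of the 8 genes were called in the 3 tests by edgeR, DESeq2 and limma-voom, with 0, 1 and 2 at an unadjusted p under 0.05. The share of all genes called was 0% for BM CD11b+ minus LSK, 0.00511% for spleen CD11b+ minus LSK and 0% for spleen minus BM CD11b+. For Birc3 the value in spleen was more negative than in LSK cells by a log2 difference of -1.71 (SE 0.581, adjusted p = 0.258) and than in BM CD11b+ cells by -1.64 (SE 0.581, adjusted p = 0.347). Casp9 gave 1.04 for spleen minus BM CD11b+ (SE 0.398, adjusted p = 0.372). Without the 3 CD11b+ libraries with the fewest genes detected, the Birc3 value for spleen minus BM CD11b+ was -3.03. That setting left 1 MxCre library in each CD11b+ fraction, so only the effect size is given. The Birc3 difference is thus not shown to be particular to spleen CD11b+ cells.

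As a description over the 21 libraries, which share their fraction in sets of 7, Birc3 and Cflar had the highest Pearson r of any 2 of the 8 genes except Casp8 and Xiap (0.82 and 0.85), followed by Birc2 and Birc3 at 0.77. With the mean of each fraction removed, Birc3 and Cflar were at 0.57 and Birc2 and Birc3 at 0.49, whereas Casp8 and Xiap were at 0.80, Xiap and Birc2 at -0.86 and Casp8 and Birc2 at -0.70. The genes most like each member over these libraries, among the 8773 genes compared (mean level 3 log2 CPM or more), were Rnf19b, Gadd45b and Cass4 for Birc3 (r of 0.973, 0.968 and 0.968) and Ap3b1, Spg11 and Taok3 for Casp8 (0.976, 0.975 and 0.973). For Birc2 they were Arfrp1, Ccdc59 and Tctex1d2 (0.953, 0.952 and 0.949), for Xiap Arhgef7, Secisbp2l and Rab10 (0.945, 0.943 and 0.934) and for Apaf1 Nhsl2, Usp4 and Noct (0.938, 0.935 and 0.931). For Casp6 they were Sh3bp1, Gsto1 and Nfkb1 (0.924, 0.883 and 0.882), for Cflar Plek and Prex1 (0.920 and 0.911) and for Casp9 Plekhm1, Blvra and Slc37a2 (0.913, 0.911 and 0.908).

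The genes around the 8 in these pathways were taken from 6 lists of 57 genes, of which 55 were tested. Between spleen CD11b+ and LSK cells, 28 of the 55 were called higher and 11 lower in the controls (70.9%, beside 52.5% of all genes), and 20 higher and 5 lower in S3 (45.5%, beside 27.4%). Between BM CD11b+ and LSK cells, 16 were called higher and 11 lower in the controls (49.1%, beside 48.8% of all genes), and 14 higher and 7 lower in S3 (38.2%, beside 27.1%). In the controls, 10 were higher and 2 lower in spleen than in BM CD11b+ cells (21.8%, beside 9.97%), and in S3 0 were called. With library size alone in place of TMM, a setting chosen for these lists after the data were seen, the split turned toward lower calls. It was then 16 higher and 19 lower between spleen CD11b+ and LSK cells of the controls, 8 higher and 10 lower in S3, 7 higher and 26 lower between BM CD11b+ and LSK cells of the controls and 7 higher and 12 lower in S3, while that between spleen and BM CD11b+ cells of the controls stayed at 10 higher and 2 lower. The values that follow are with TMM.

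Among 16 death ligands, receptors and adaptors, 9 were called higher and 3 lower in spleen CD11b+ cells of the controls, relative to LSK cells, and 7 higher and 2 lower in S3, where 52.5% and 27.4% of all genes were called. With library size alone there were 6 higher and 5 lower in the controls and 3 higher and 2 lower in S3. Fas, which encodes a death receptor, was higher by 4.98 in the controls (adjusted p = 6.73e-06) and by 4.36 in S3 (adjusted p = 0.000191). It was at 0.36 to 0.60 log2 CPM in the LSK controls and at 3.84 to 6.91 in the spleen controls, and at -0.49 to 0.43 and 2.99 to 4.79 in S3. Tnf was higher by 3.88 and 3.63 and Traf1, which encodes a partner of cIAP1 and cIAP2 at TNF receptors, by 4.43 and 4.25 in controls and S3. Tnfsf10, which encodes the death ligand TRAIL, was lower by log2 fold changes of -4.69 and -2.85. Fasl was higher by 4.25 in the controls.

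All IAP partners in NF-kB signaling that were called between these fractions were higher in spleen CD11b+ cells, 6 of 9 in the controls (beside 52.5% of all genes) and 5 of 9 in S3 (beside 27.4%). With library size alone 3 of these calls held in the controls and 2 in S3, Map3k14 was at 0.35 and 0.86 and Cyld at 0.25 and 0.00 (none of them called), and Tnfaip3 was called in the controls only. That scaling also gave 1 lower call among the 9 in the controls. Relb, which encodes an NF-kB subunit, was at 2.69, 3.25 and 2.90 log2 CPM in LSK S3 libraries and at 7.62, 7.90 and 5.6 in spleen S3 animals 540, 815 and 640, a log2 fold change of 4.37 (adjusted p = 6.45e-05), and it was higher by 4.32 in the controls (adjusted p = 5.65e-06). Tnfaip3, which encodes the NF-kB inhibitor A20, was higher by 3.73 in the controls and 2.66 in S3, and Nfkb2 by 2.75 and 2.39. Map3k14, the gene of the NF-kB-inducing kinase that cIAP1 and cIAP2 keep low, was higher by 1.18 and 1.51. Cyld, which encodes a deubiquitinase, was higher by 1.06 and 0.66. Between spleen and BM CD11b+ cells of the controls, Relb (2.83), Nfkb2 (1.92) and Cyld (0.86) were higher in spleen. The median of the 9 was 1.06 in spleen CD11b+ against LSK cells of the controls and 0.66 in S3, beside the -0.23 and 0.02 over all genes. The spleen library of S3 animal 640, lowest among the spleen S3 libraries for Birc3 and Birc2, was also lowest for Relb, for Traf1 (5.07 against 7.63 and 8.21) and for Nfkb2 (6.75 against 8.0 and 7.77).

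Casp1 and Casp4, which encode inflammatory caspases, were higher in spleen CD11b+ cells than in the LSK fraction by 1.84 and 2.27 in the controls and by 1.32 and 1.26 in S3 (0.63 and 0.58, not called, in S3 with library size alone), and Casp2 and Casp12 were lower, by log2 fold changes of -2.21 and -4.39 in the controls and -1.68 and -3.77 in S3. Among mitochondrial factors and nucleases, Aifm1 and Dffa were lower in BM CD11b+ than in LSK cells of the controls (-1.03 and -1.07) and of S3 (-1.17 and -1.24). In spleen CD11b+ against LSK cells of the controls, Aifm1 (-1.15), Dffa (-0.72) and Septin4 (-2.75) were lower and Cycs, the cytochrome c gene, was higher by 0.60 (-0.22 and not called with library size alone).

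Of the other IAP genes and Xaf1, Naip1 and Naip2 were higher in spleen CD11b+ cells than in the LSK fraction, by 5.77 and 1.48 in the controls and by 4.87 and 1.34 in S3. The Naip genes are close copies of each other, so their counts are uncertain. Birc5, which encodes the mitotic protein survivin, was higher in BM CD11b+ than in LSK cells by 3.57 in the controls and 3.38 in S3, and lower in spleen than in BM CD11b+ cells of the controls (-2.81). The 7 immature neutrophil markers summed to 18500 to 70000 CPM in BM CD11b+, 2240 to 37700 CPM in spleen CD11b+ and 2670 to 6310 CPM in LSK libraries. Their part, and that of the erythroid transcripts given above, in the Birc5 difference was not tested. Birc6 was lower than in LSK cells in the controls, at -1.80 in BM and -1.50 in spleen.

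Of 9 genes of necroptosis and pyroptosis, 7 were called higher and 2 lower in spleen CD11b+ cells of the controls, relative to LSK cells, and 4 higher and 1 lower in S3, beside the same 52.5% and 27.4% of all genes. With library size alone there were 3 higher and 2 lower in the controls and 2 higher and 2 lower in S3. Pycard, the inflammasome adaptor gene, was higher by 2.07 and 2.43. Nlrp3, which encodes an inflammasome sensor, was higher by 6.80 and 2.44. Mlkl, the gene of the necroptosis effector, was lower at -1.34 and -1.53, and Ripk3, the gene of its kinase, was lower in the controls at -0.77.

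Between S3 and MxCre in spleen CD11b+ cells, 1 of the 55 genes was called higher and 3 lower (7.27%, beside the 4.19% of all genes). With library size alone it was 2 higher and 1 lower, with 1 gene of necroptosis and pyroptosis newly called higher. None of these calls held in a fit of the S3 and MxCre spleen libraries alone, where edgeR called 0 genes. Casp4 was at 6.66 and 7.78 log2 CPM in MxCre and at 5.27, 5.32 and 4.36 in S3, a log2 fold change of -2.28 (SE 0.382, adjusted p = 0.00736). Nlrp3 was at 8.52 and 9.92 in MxCre and at 5.71, 4.51 and 6.02 in S3 (-3.83, SE 0.940, adjusted p = 0.0328). For both genes the groups stood well apart, although Nlrp3 was not called with library size alone (-3.27, adjusted p = 0.0619). Naip5 was lower at -1.34 (adjusted p = 0.0245), which was -0.96 and not called with library size alone. Tnfrsf25, the gene of death receptor 3, was higher by 4.09 (adjusted p = 0.0461) from 0 and 9 counts in MxCre to 57, 67 and 254 in S3, so the size of its fold change depends on few counts. Between Ptpn11D61Y/+ and MxCre in the same cells, 1 of the 55 was higher and 4 were lower (9.09%, beside 5.11% of all genes). The split turned to 3 higher and 1 lower with library size alone, where 2 death ligands, receptors or adaptors were newly called higher. Casp4 (-1.99), Gsdme (-2.61), Tnf (-3.80) and Tnfrsf1b (-1.80) were lower and Dffa (1.53) was higher under the label Ptpn11D61Y/+, and with library size alone Casp4, Tnf and Tnfrsf1b were not called (-1.32, -3.19 and -1.18). In S3 against Ptpn11D61Y/+, in both other fractions and in the 3 differences between fractions, 0 of the 55 were called.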

How the data were processed

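The authors deposited raw read counts per Ensembl gene for 21 libraries, 1 table each, and the count columns were used as deposited. Per the labels, RNA of all samples was purified with RNeasy Micro kits and made into Illumina TruSeq libraries. The study's methods name the kit as stranded mRNA and give 3 mice per genotype, whereas the labels give 2 libraries per control group. Reads were trimmed with Trim Galore and mapped with STAR to GRCm38. The submitters' processing notes name bcl2fastq 2.20.0.422, FastQC 0.11.9, Trim Galore 0.6.5 and STAR 2.5.3a. The counting program, the annotation and the use of strand are not given in the sources used here.

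Counts were tested with edgeR 4.0.16 (robust quasi-likelihood test, TMM) in R 4.3.3, with 1 fit over the 9 groups and all 21 libraries (12 residual degrees of freedom). The filter filterByExpr (minimum count 10, minimum total 15) kept 19555 genes with 99.99% of the counts. P-values were adjusted over all genes tested (Benjamini-Hochberg, threshold 0.05), and log2 CPM used a prior count of 2. By the labels, S3 libraries of 1 animal number come from the same animal, which pairs them across fractions (LSK and CD11b+ cells only through animals 540 and 815, of which Xist counts go against 540), and their deviations from the group means correlated at -0.096 to 0.407. In fraction comparisons, the controls were the mean of MxCre and Ptpn11D61Y/+. S3 libraries were compared with MxCre (main) and with Ptpn11D61Y/+. Library totals (34992610 to 104509425 counts) bear on counting error and on the number of genes detected. The libraries with the fewest counts, BM S3 815 (34992610) and BM MxCre 1 (38436746), were among the 3 CD11b+ libraries with the fewest genes detected. Alternatives were DESeq2 1.42.0, limma-voom (limma 3.58.1), RLE size factors, library size alone, no filter on low counts, only the groups compared, both controls together, a replicate block, the 3 CD11b+ libraries with the fewest genes detected left out and each library left out, and, chosen after the data were seen, both CD11b+ libraries of S3 animal 640 left out and library size alone for the pathway lists. The edgeR test was tested on simulated data.

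The 8 genes and all lists were chosen with earlier results of these data known. All 8 genes were tested in every comparison. From 6 lists (other caspases, mitochondrial factors and nucleases, other IAP genes and Xaf1, death ligands, receptors and adaptors, IAP partners in NF-kB signaling, necroptosis and pyroptosis), at most 5 called genes were named per list and comparison, and the 3 genes with the highest Pearson r with each member over the 21 libraries. A few genes that this rule would name are not reported here. Beside the marker lists whose sums the text gives (stem and progenitor, myeloid, B cell, erythroid, and neutrophil at both stages), 5 others were summed. Summed CPM over the 21 libraries was 146 to 12000 for monocytes and macrophages, 10 to 407 for dendritic cells, 3.70 to 251 for T cells, 0.298 to 138 for NK cells and 18.6 to 330 for megakaryocytes. Septin4 was matched by its older name Sept4, and Casp14 and Birc7 did not pass the filter. Promoter windows are RefSeq sequences of GRCm38.p6.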

Additional observations from a re-analysis of the deposited data

How the results depend on the processing

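The S3 against MxCre difference of Birc3 in spleen CD11b+ cells was negative under every setting run, but was not called with library size alone (-1.45), with only the groups compared (-1.98) or with both controls together (-1.37), and ran from -2.25 to -1.44 when single libraries were left out. The number of the 8 genes called there fell from 1 to 0 under those 3 settings and ran from 0 to 2 over the libraries left out, 2 being Birc2 and Birc3. With only the groups compared, 2 were called for S3 against MxCre and 2 for S3 against Ptpn11D61Y/+ in LSK cells, 1 for Ptpn11D61Y/+ against MxCre in LSK cells, 2 for BM against LSK cells in S3 and 7 in the controls, and 0 for spleen against BM in the controls. Of all genes, that setting called 4700, 5223 and 2508 in these LSK comparisons. It called 3796 genes for BM against LSK cells in S3, 11161 in the controls and 664 for spleen against BM in the controls. DESeq2 called 1 of the 8 for Ptpn11D61Y/+ against MxCre in BM and 1 in spleen, and 4 for BM against LSK cells in S3, where limma-voom called 2, and 6 in the controls, where edgeR and limma-voom each called 4. Of all genes, DESeq2 called 1840 and 3329 between the controls in BM and spleen. For BM against LSK cells it called 7335 in S3 and 10735 in the controls, and limma-voom called 6071 and 9866. For spleen against LSK cells in S3 the count of the 8 was 2 with RLE size factors, 1 with library size alone and 2 with no filter, and for the controls it was 3 with library size alone. Of all genes, RLE size factors called 5437 and library size alone 5901 in S3, and library size alone called 11386 in the controls. Of the 8, spleen against BM in the controls gave 1 with no filter. Leaving out the 3 CD11b+ libraries with the fewest genes left 1 MxCre library in each CD11b+ fraction, so counts against MxCre there are not given. With this setting 2 were called for BM against LSK cells in S3, and without animal 640, 5 were called for that comparison, beside 8416 of all genes. Over single libraries left out, the count was 0 to 1 for S3 against MxCre in BM, 0 to 4 for BM against LSK cells (0 without LSK S3 540) and 2 to 3 for spleen against LSK cells in S3, and 0 to 2 for spleen against BM in the controls (0 without BM Ptpn11D61Y/+ 1). Of the differences at an unadjusted p under 0.05, 3 reversed sign with library size alone, where the median over all genes also moved down. They were Birc2 in BM (-0.21) and Casp9 (-0.01) and Apaf1 (-0.11) in spleen against LSK cells of the controls. Cflar in BM against LSK cells of the controls, not among them, also turned and was then called lower. The cause of the other changes was not tested.

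S3 and control libraries share no numbers, so no replicate block was fitted for S3 against a control within a fraction. It was fitted between fractions, for the differences of S3 against MxCre between fractions and between the controls. Between the controls the fit held the control libraries alone, with the library number as block across both genotypes. The block gave 1 called gene for Ptpn11D61Y/+ against MxCre in BM (Casp8, 2.47) and 1 in spleen (Casp8, 1.63), 3 for BM against LSK cells in S3 and 1 for spleen against BM in the controls. For the Casp8 calls between the controls, the block and the leaving out of S3 libraries cannot be told apart. In the controls the block also called Birc2 (0.76, adjusted p = 0.0204) and Xiap (-0.75, adjusted p = 0.0123) between BM CD11b+ and LSK cells. Between spleen CD11b+ and LSK cells of the controls it called Casp8 as well (-1.22, adjusted p = 0.029). Libraries of the same control number deviated together with correlations of -0.173 to 0.059, so the controls share only a number. For S3, which the labels pair by animal, the block changed no call of the 8 genes between fractions other than those given with the results.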
